A study of Mus musculus with 2 samples.

Results

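10 genes named for glucocorticoid and nutrient stress responses were followed in single cells of the mouse submandibular gland: Tsc22d3, Txnip, Sesn1, Pik3ip1, Pdcd4, Bnip3, Trp53inp1, Fkbp5, Per1 and Acot1. They are 10 of 27998 genes counted, and all 10 were found in both libraries. They were chosen with earlier results of these data known, for a higher level in the p63 KO library, so their KO over wild-type differences are descriptions of 2 libraries and none of them was tested. The open point was whether the higher level was found in every cell class or only in some.

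Whole salivary glands of adult mice aged 12 weeks were dissociated, and transcripts were counted by their 3' ends in droplets, with unique molecular identifiers (UMIs) that let each captured molecule count once. There was 1 library from p63 wild-type and 1 from p63 KO tissue, so no difference has a replicate check. The labels give no strain, no time or method of deletion, and no statement on pooling of glands. They name the source as epithelial progenitor cells, but endothelial, macrophage and red cell markers were also found. Both libraries had Xist UMIs (9756 and 6171) and 0 UMIs of the Y-linked genes Ddx3y, Eif2s3y and Uty. The filter asked for 200 or more genes and a mitochondrial share below 20%, which left 1663 of 1970 wild-type barcodes and 2423 of 4726 KO barcodes, with medians of 3406 and 2088 UMIs and of 5.15% and 6.58% mitochondrial UMIs. Of the barcode sequences, 11 occurred in both libraries, 7 of them among kept cells. Trp63, the targeted gene, had 149 wild-type and 20 KO UMIs, a KO over wild-type ratio of 0.155 (95% interval 0.0920 to 0.248); a 3' tag checks a deletion only if it removed that end of the gene. Basal duct-like cells, which carry Trp63, were 24.3% of the kept cells with wild-type p63 but 2.77% with the KO, and Krt5 had 663 and 7 UMIs, so loss of the gene and loss of these cells cannot be told apart in that ratio.

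Glucocorticoids enter cells and bind the glucocorticoid receptor, which moves to the nucleus and activates genes such as Tsc22d3, Fkbp5 and Per1. When insulin and growth factor signalling through PI3K and AKT is low, FOXO factors enter the nucleus and activate genes that slow growth and start autophagy, and Sesn1, Txnip and Trp53inp1 respond to such signals as well as to p53 or glucose. Glucocorticoids also shape the secretory ducts of rodent salivary glands, in which androgens and thyroid hormone act too.

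Cells were assigned to classes by marker genes, and the names carry "-like" because they rest on RNA alone. Levels are CPM, the UMIs of a gene scaled to the sum of all UMIs of the class, and intervals are 95% intervals that cover counting error only. A ratio is past the size rule where the gene had 50 or more UMIs summed over the libraries and the interval lies wholly beyond 2-fold. A class was compared where each library gave it 50 or more cells, 20 or more of them in an unsupervised cluster of the same name, which left 6: basal duct-like (404 wild-type and 67 KO cells), Smgc-rich acinar-like (200 and 57), granular tubule-like (155 and 402), intercalated duct-like (254 and 186), endothelial-like (55 and 322) and macrophage-like cells (70 and 243). In 4 of these 6 the cluster that held most cells differed between the libraries. Basal duct-like cells lay mostly in cluster 1 (wild-type) and 11 (KO), Smgc-rich acinar-like cells in clusters 8 and 16, granular tubule-like cells in clusters 10 and 0, and intercalated duct-like cells in clusters 6 and 4. Cluster 16 held 0 wild-type and 117 KO cells. Values within a class may therefore compare cells of different states, and this could not be told apart from genotype. KO basal duct-like cells had 0 UMIs of Krt15 and Col17a1, which mark basal cells. Their main cluster, 11, had among its top genes both Krt17 and F3, the latter a marker of the striated or excretory duct gate. Only 4 (wild-type) and 5 (KO) of 8 markers of Smgc-rich acinar cells were over 2-fold above the other cells. The striated or excretory duct gate held 73 and 341 cells, of which only 25 and 4 lay in a cluster of that name, so its levels are given but not compared.

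Over all kept cells, 8 of the 10 genes were higher in the KO library past the size rule, beside 6.72% of the 10285 genes with enough UMIs, and 0 were lower, beside 2.49%. With scaling by TMM factors 8 of the 10 still passed, although the split of all genes past the rule moved from 691 higher and 256 lower to 445 and 416, and the log2 median of all genes moved from 0.18 to 0.01. The log2 median of the 10 genes was 1.84. The mix of classes enters these values. Across the 6 classes, 24 of the 60 pairs of gene and class passed the rule as higher and 0 as lower, and no interval lay wholly below 1. The number of the 10 genes past the rule was 7 in intercalated duct-like cells (beside 1.77% of all genes with enough UMIs there), 5 in granular tubule-like (2%), 5 in Smgc-rich acinar-like (4.39%), 4 in endothelial-like (2.63%), 3 in basal duct-like (1.24%) and 0 in macrophage-like cells (7.52%). Lower past the rule were 2.1%, 1.32%, 2.12%, 1.43%, 1.64% and 4.99% of all genes in the same order of classes. Among the genes with 50 UMIs, the interval lay above 1 for 10 of 10 in intercalated duct-like cells (beside 20% of all genes), 9 of 10 in granular tubule-like (22%), 8 of 8 in Smgc-rich acinar-like (22.4%), 8 of 8 in endothelial-like (20.3%), 6 of 9 in basal duct-like (16.1%) and 1 of 3 in macrophage-like cells (32.4%), and over all cells for 10 of 10 (46.6%). Scaling by TMM factors left the number of the 10 genes past the rule at 24 of 60, but moved the split of all genes, higher and lower, from 53 and 70 to 36 and 104 in basal duct-like, from 85 and 41 to 53 and 94 in Smgc-rich acinar-like, from 57 and 31 to 76 and 25 in endothelial-like and from 107 and 71 to 168 and 47 in macrophage-like cells. Since the 10 genes were chosen on this contrast, nothing is read from these counts against their backgrounds. Which gene passed differed between classes: Trp53inp1 in 5 of the 6, Acot1 in 1 and Per1 in 0.

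**Figure D1:**
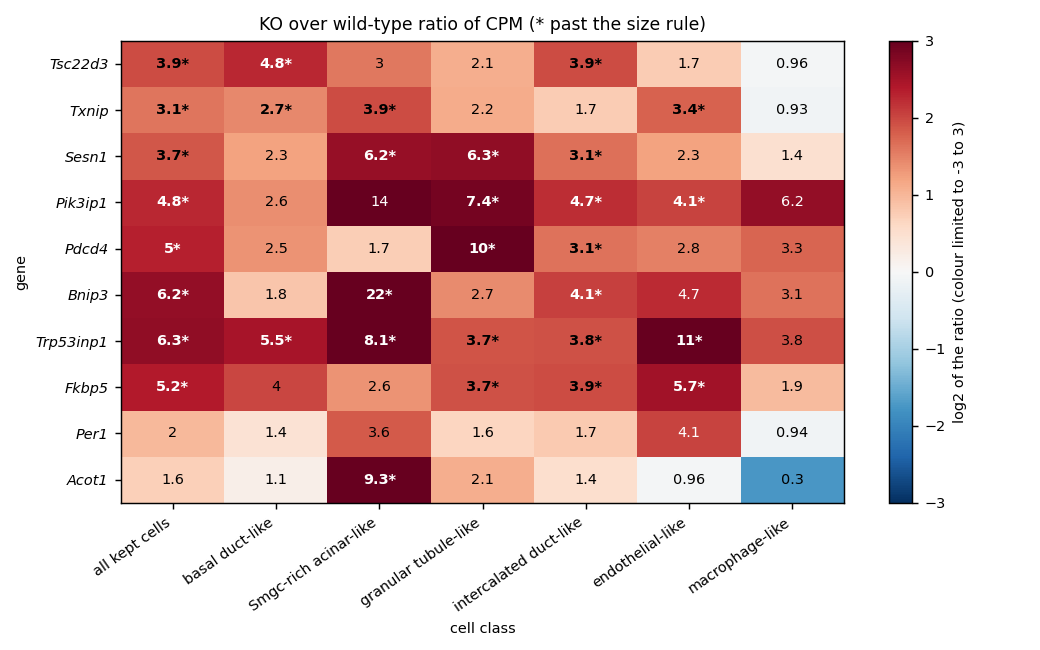
KO over wild-type ratio of CPM for each of the 10 genes (rows) over all kept cells and in the 6 compared classes (columns), coloured by the log2 ratio; an asterisk marks ratios past the size rule. Trp53inp1 is marked in 5 of the 6 classes, Acot1 in Smgc-rich acinar-like cells alone, and no gene in macrophage-like cells.

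Tsc22d3 and Fkbp5, both textbook glucocorticoid receptor targets, were higher over all cells, and both passed the rule in intercalated duct-like cells. Tsc22d3 encodes GILZ, a leucine zipper protein that dampens inflammatory signalling (ENSMUSG00000031431; GRCm38 chromosome X, 140539528 to 140600659, minus strand). It had 606 wild-type and 2033 KO UMIs, 76.4 and 295.8 CPM, a ratio of 3.87 (3.54 to 4.25). Basal duct-like cells stood at 82.8 CPM (70.1 to 97.1) in the wild-type library, from 151 UMIs, and at 396 CPM (322 to 482) with the KO, from 99, which makes the ratio 4.79 (3.68 to 6.21). In intercalated duct-like cells the levels were 99.1 and 385 CPM, from 118 and 309 UMIs, a ratio of 3.89 (3.14 to 4.85). The levels of the libraries did not overlap in either of these duct classes. In endothelial-like cells Tsc22d3 stood at 432 CPM already in the wild-type library and at 727 in the KO library, a ratio of 1.68 (1.32 to 2.18) that did not pass the rule. In macrophage-like cells it had 48 and 93 UMIs, 241 CPM (178 to 319) and 231 CPM (187 to 283), a ratio of 0.960 (0.671 to 1.39). That interval includes 1 and lies below those of basal and intercalated duct-like cells. The highest Tsc22d3 level of any class was 2327 CPM in the 68 fibroblast-like cells of the KO library, a class with 6 wild-type cells and no comparison.

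Fkbp5 encodes a co-chaperone that lowers the affinity of the glucocorticoid receptor for its hormone (ENSMUSG00000024222; chromosome 17, 28399094 to 28517527, minus strand). It had 147 and 660 UMIs over all cells, 18.5 and 96.0 CPM, a ratio of 5.18 (4.33 to 6.24). It passed the rule in granular tubule-like cells, with 19 and 164 UMIs and a ratio of 3.74 (2.32 to 6.38; 2.49, 1.78 to 3.56, and not past the rule without a filter on barcodes), in intercalated duct-like cells, with 23 and 60 UMIs and a ratio of 3.88 (2.36 to 6.57), and in endothelial-like cells, with 5 and 103 UMIs and a ratio of 5.71 (2.37 to 18.0). In Smgc-rich acinar-like cells the ratio was 2.56 (1.57 to 4.13), from 41 and 34 UMIs. Basal duct-like cells, where Tsc22d3 had its highest ratio, held only 11 and 6 Fkbp5 UMIs, 6.03 and 24.0 CPM, a ratio of 3.98 (1.21 to 11.8). The KO endothelial-like level of 165 CPM was the highest of any class and library.

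Per1, a core component of the circadian clock that is also induced by glucocorticoids, did not pass the rule over all cells or in any class (ENSMUSG00000020893; chromosome 11, 69095217 to 69109960, plus strand). It had 272 and 464 UMIs, 34.3 and 67.5 CPM, a ratio of 1.97 (1.69 to 2.29). Intercalated duct-like cells gave 78 and 91 UMIs, 65.5 and 113.5 CPM, a ratio of 1.73 (1.27 to 2.38). In basal duct-like cells the ratio was 1.35 (0.724 to 2.37), in granular tubule-like cells 1.57 (0.957 to 2.68) and in macrophage-like cells 0.936 (0.395 to 2.38), with intervals that include 1. In Smgc-rich acinar-like and endothelial-like cells the ratios were 3.60 (1.54 to 8.52) and 4.07 (1.30 to 20.5), from 12 and 14 and from 3 and 44 UMIs.

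Txnip encodes a protein that binds thioredoxin and curbs glucose uptake, and its gene is induced by glucose through the MondoA and ChREBP factors (ENSMUSG00000038393; chromosome 3, 96557957 to 96561883, plus strand). It was the most abundant of the 10, with 2189 and 5795 UMIs, 276 and 843 CPM, a ratio of 3.06 (2.91 to 3.21). Smgc-rich acinar-like cells stood at 315 CPM (278 to 356) and 1233 CPM (1103 to 1374), from 258 wild-type and 327 KO UMIs, which makes the ratio 3.91 (3.31 to 4.62). The endothelial-like ratio was 3.42 (2.64 to 4.51), from 62 and 765 UMIs, and that of basal duct-like cells 2.73 (2.16 to 3.43), from 281 and 105 UMIs. The latter did not pass with TMM factors, at 2.39 (1.89 to 3.01). The granular tubule-like ratio was 2.15 (1.85 to 2.50), and in intercalated duct-like cells, which had the highest wild-type level at 672 CPM, it was 1.70 (1.54 to 1.87). Macrophage-like cells gave 176 and 164 CPM from 35 and 66 UMIs, a ratio of 0.935 (0.611 to 1.45). Red cell-like barcodes (55 and 45 cells), which should hold little but globin RNA, gave 262 CPM (192 to 348) and 231 CPM (161 to 321). UMIs of free RNA in droplets are a known source of such levels. The Txnip levels of macrophage-like cells in either library lay within or below that range, and are not read as expression by those cells. Wild-type basal duct-like (154 CPM, 136.5 to 173) and Mucl2-rich acinar-like cells (64.2) lay below the wild-type range, and the same limit holds. KO basal duct-like cells stood at 420 CPM (344 to 509), above the KO range. Wild-type Smgc-rich acinar-like and endothelial-like levels (357 CPM, 274 to 458, in the latter) overlapped the wild-type range. The part of free RNA was not tested in any class. Txnip overlaps Gm15441 on the opposite strand; the labels do not state whether counting used the strand, and Gm15441 itself had 11 and 36 UMIs.

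RefSeq promoter windows (GRCm38.p6, 250 bases before to 50 after each start) were at hand for 9 of the 10 genes, in 14 windows; Trp53inp1 had none. They were searched on both strands for 6 motifs. The Txnip window, at chr3:96557707-96558006 on the plus strand, is shown because it held 3 of them, in capitals from 5' to 3': the glucocorticoid response element (in 0.475% of 32851 promoters), the FOXO site GTAAACA (3.65%) and the carbohydrate response element (0.365%).

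Txnip: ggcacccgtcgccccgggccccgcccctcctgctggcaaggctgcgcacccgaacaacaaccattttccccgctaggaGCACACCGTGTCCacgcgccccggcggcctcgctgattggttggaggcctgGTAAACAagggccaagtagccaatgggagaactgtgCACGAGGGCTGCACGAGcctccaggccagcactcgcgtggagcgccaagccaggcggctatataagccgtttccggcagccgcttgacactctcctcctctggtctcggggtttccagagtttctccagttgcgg

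They began 172, 121 and 85 bases before the start. The FOXO letters also occurred, on the other strand, in 1 of the Sesn1 windows, and the E-box CACGTG (7.15% of promoters) in windows of Bnip3, Per1 and Fkbp5. The Per1 window at chr11:69098699-69098998 on the plus strand and the Bnip3 window at chr7:138909457-138909756 on the minus strand are shown with the E-box in capitals, since this is the element that clock factors bind; the carbohydrate response element can hold its letters.

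Per1: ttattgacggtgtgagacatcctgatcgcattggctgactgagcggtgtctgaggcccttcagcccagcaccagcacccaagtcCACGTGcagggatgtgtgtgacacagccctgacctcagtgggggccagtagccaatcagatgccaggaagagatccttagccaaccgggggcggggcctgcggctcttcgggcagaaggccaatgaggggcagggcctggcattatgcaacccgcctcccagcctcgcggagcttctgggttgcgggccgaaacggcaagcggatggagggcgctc

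Bnip3: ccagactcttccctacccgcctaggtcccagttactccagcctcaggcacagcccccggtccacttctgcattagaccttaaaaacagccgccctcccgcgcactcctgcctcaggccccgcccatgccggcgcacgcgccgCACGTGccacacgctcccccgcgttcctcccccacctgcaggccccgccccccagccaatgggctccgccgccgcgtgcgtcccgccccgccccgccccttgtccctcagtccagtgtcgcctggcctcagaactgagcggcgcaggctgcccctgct

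The cAMP response element TGACGTCA (1.79%) and the PPAR direct repeat (0.0396%) were in none of the 14 windows. Per1, with an E-box, did not pass the size rule, while Bnip3, with the same letters, did. A match is a description of letters and not of binding.

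Sesn1, Pik3ip1 and Trp53inp1 restrain growth signalling or respond to p53 and FOXO. Trp53inp1 encodes a stress protein that acts with p53 in cell cycle arrest and takes part in autophagy (ENSMUSG00000028211; chromosome 4, 11156431 to 11174379, plus strand). It had 280 and 1524 UMIs over all cells, 35.3 and 221.8 CPM, a ratio of 6.28 (5.53 to 7.16). It was past the rule in each compared class where it had 50 UMIs. Smgc-rich acinar-like cells stood at 31.8 CPM (20.8 to 46.6) and 256 CPM (199 to 325), from 26 wild-type and 68 KO UMIs, which makes the ratio 8.07 (5.07 to 13.2). Basal duct-like cells gave a ratio of 5.52 (3.43 to 8.81), intercalated duct-like cells 3.78 (2.94 to 4.89) and granular tubule-like cells 3.69 (2.45 to 5.77), but 2.51 (1.82 to 3.56) and not past the rule where clusters replaced the gates. With cells thinned to 1000 UMIs, basal and intercalated duct-like cells stood at 2.26 (0.386 to 9.42) and 2.43 (1.48 to 4.05) and no longer passed. The endothelial-like ratio of 10.8 (2.90 to 90.9) rested on 2 wild-type UMIs, against 78 in the KO library. In macrophage-like cells 3 and 23 UMIs gave a ratio of 3.80 (1.15 to 19.8), with too few UMIs for the rule. The KO library had its highest levels in classes with few or no wild-type cells, 830 CPM in 22 adipocyte-like, 458.5 in fibroblast-like and 454 in myoepithelial-like cells.

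Sesn1, a sestrin that inhibits mTORC1 when leucine is scarce, had 204 and 647 UMIs, 25.7 and 94.2 CPM, a ratio of 3.66 (3.12 to 4.31; ENSMUSG00000038332; chromosome 10, 41809935 to 41908424, plus strand). It was higher past the rule in granular tubule-like cells, with 5 and 73 UMIs and a ratio of 6.33 (2.59 to 20.1), in Smgc-rich acinar-like cells, with 31 and 62 UMIs and a ratio of 6.17 (3.95 to 9.82), and in intercalated duct-like cells, with 47 and 99 UMIs and a ratio of 3.13 (2.2 to 4.5). Basal duct-like and endothelial-like cells had ratios of 2.30 (1.25 to 4.03) and 2.32 (1.11 to 5.60). The macrophage-like ratio was 1.40 (0.528 to 4.35). Red cell-like barcodes held 2 and 1 Sesn1 UMIs.

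Pik3ip1, a membrane protein that inhibits the PI3K catalytic subunit, had 173 and 717 UMIs, 21.8 and 104 CPM, a ratio of 4.78 (4.05 to 5.68; ENSMUSG00000034614; chromosome 11, 3330401 to 3342971, plus strand). It passed the rule in granular tubule-like cells, with 5 and 85 UMIs and a ratio of 7.37 (3.04 to 23.3), in intercalated duct-like cells, with 35 and 110 UMIs and a ratio of 4.67 (3.17 to 7.04), and in endothelial-like cells, with 8 and 118 UMIs and a ratio of 4.09 (2.01 to 9.70). In Smgc-rich acinar-like cells 3 and 14 UMIs gave a ratio of 14.4 (4.02 to 78.1). In macrophage-like cells 2 and 25 UMIs gave 6.2 (1.5 to 54). Pik3ip1, Trp53inp1 and Pdcd4 were the genes of the 10 whose interval lay above 1 in all 6 classes, also where they had under 50 UMIs. In single classes 16.1% to 32.4% of all genes with enough UMIs had such an interval. The share of all genes that had it in every class was not taken, so nothing is read from this.

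Pdcd4, an inhibitor of the translation initiation helicase eIF4A that mTORC1 signalling marks for breakdown, had 1098 and 4801 UMIs over all cells, 138 and 699 CPM, a ratio of 5.05 (4.72 to 5.39; ENSMUSG00000024975; chromosome 19, 53892231 to 53929860, plus strand). Its difference was largest in granular tubule-like cells, which secrete kallikreins and growth factors. These cells stood at 171 CPM (135 to 214) and 1720 CPM (1641 to 1801), from 77 wild-type and 1781 KO UMIs, which makes the ratio 10.0 (7.98 to 12.8). With no filter on barcodes the ratio was 6.14 (5.28 to 7.19), still past the rule. Markers of other cells were higher in the wild-type library here as well, red cell markers at 8160 and 1460 CPM and Smgc-rich acinar markers at 7800 and 627 CPM, and their part was not tested. A Pdcd4 UMI was seen in 33.5% of these wild-type cells and 92.5% of the KO ones, and 16.1% and 73.4% after each cell was thinned to 1000 UMIs. The ratio in intercalated duct-like cells, 3.1 (2.66 to 3.62), passed the rule as well, with an interval below that of granular tubule-like cells. Basal duct-like, endothelial-like and Smgc-rich acinar-like cells had ratios of 2.54 (1.97 to 3.26), 2.83 (1.86 to 4.51) and 1.67 (1.17 to 2.38). Macrophage-like cells had 8 and 54 UMIs, 40.1 and 134 CPM, a ratio of 3.35 (1.58 to 8.14). Red cell-like barcodes had 15 and 49, 83.6 CPM (46.8 to 138) and 323 CPM (239 to 428). Pdcd4, of the 10 genes the most abundant in KO granular tubule-like cells, was thus also higher in barcodes of cells that should hold little of its RNA. The KO macrophage-like level (101 to 175) lay below that of KO red cell-like barcodes, while the wild-type intervals (17.3 to 79.1 for macrophage-like cells) overlapped. The part of free RNA was not tested in any class. The KO granular tubule level was well above that of red cell-like barcodes, and the KO levels of Smgc-rich acinar-like (192 CPM), basal duct-like (344, 275 to 425) and endothelial-like cells (392, 344 to 444) lay below it or overlapped it.

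Bnip3, a mitochondrial outer membrane protein that recruits the autophagy machinery, had 145 and 785 UMIs, 18.3 and 114 CPM, a ratio of 6.25 (5.23 to 7.51; ENSMUSG00000078566; chromosome 7, 138890836 to 138909519, minus strand). The highest ratio of the 60, 21.9 (11.6 to 45.6), was that of Bnip3 in Smgc-rich acinar-like cells, at 13.4 CPM (6.71 to 24.1) from 11 wild-type UMIs and 294 CPM (232 to 367) from 78 KO UMIs. The ratio was 4.11 (2.59 to 6.71) in intercalated duct-like cells, from 26 and 72 UMIs. In granular tubule-like cells it was 2.67 (1.44 to 5.41), and in basal duct-like cells, from 41 and 10 UMIs, 1.78 (0.796 to 3.62). The interval in Smgc-rich acinar-like cells lay above those of these 3 duct classes. Endothelial-like and macrophage-like cells had 3 and 51 and 4 and 25 UMIs, ratios of 4.72 (1.52 to 23.6) and 3.1 (1.07 to 12.2). The 22 adipocyte-like cells of the KO library had the highest level, 1461 CPM (1249 to 1699), and no wild-type cell was gated to that class.

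Acot1, a cytosolic thioesterase that frees fatty acids from coenzyme A and is a target of PPAR alpha, stood apart from the other genes (ENSMUSG00000072949; chromosome 12, 84009490 to 84018371, plus strand). It had 622 and 878 UMIs over all cells, 78.4 and 128 CPM, a ratio of 1.63 (1.47 to 1.81) that did not pass the rule. The exception was the Smgc-rich acinar-like class, at 70.9 CPM (53.8 to 91.7) and 660 CPM (566 to 765), from 58 wild-type and 175 KO UMIs, which makes the ratio 9.31 (6.88 to 12.8). In no other compared class did it pass as a whole: the ratio was 2.11 (1.22 to 3.88) in granular tubule-like (but 7.30, 2.36 to 36.5, and past the rule, from 3 and 52 UMIs, in those with 10 to under 20% mitochondrial UMIs), 1.43 (1.13 to 1.80) in intercalated duct-like, 1.13 (0.796 to 1.58) in basal duct-like and 0.958 (0.480 to 2.08) in endothelial-like cells. The share of Smgc-rich acinar-like cells with an Acot1 UMI after thinning was 6.5% (wild-type) and 57.9% (KO). The closely related Acot2 had 77 and 60 UMIs over all cells, a ratio of 0.899 (0.631 to 1.28), and of the 441 stretches of 60 bases in the last 500 bases of Acot1 transcripts, 0 were found in Acot2. Of the 57 KO cells of this class 44 lay in cluster 16, which had Fgg, Sval2 and Slpi as its top genes, while 167 of the 200 wild-type cells lay in cluster 8, so genotype and cluster cannot be told apart here.

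**Figure D2:**
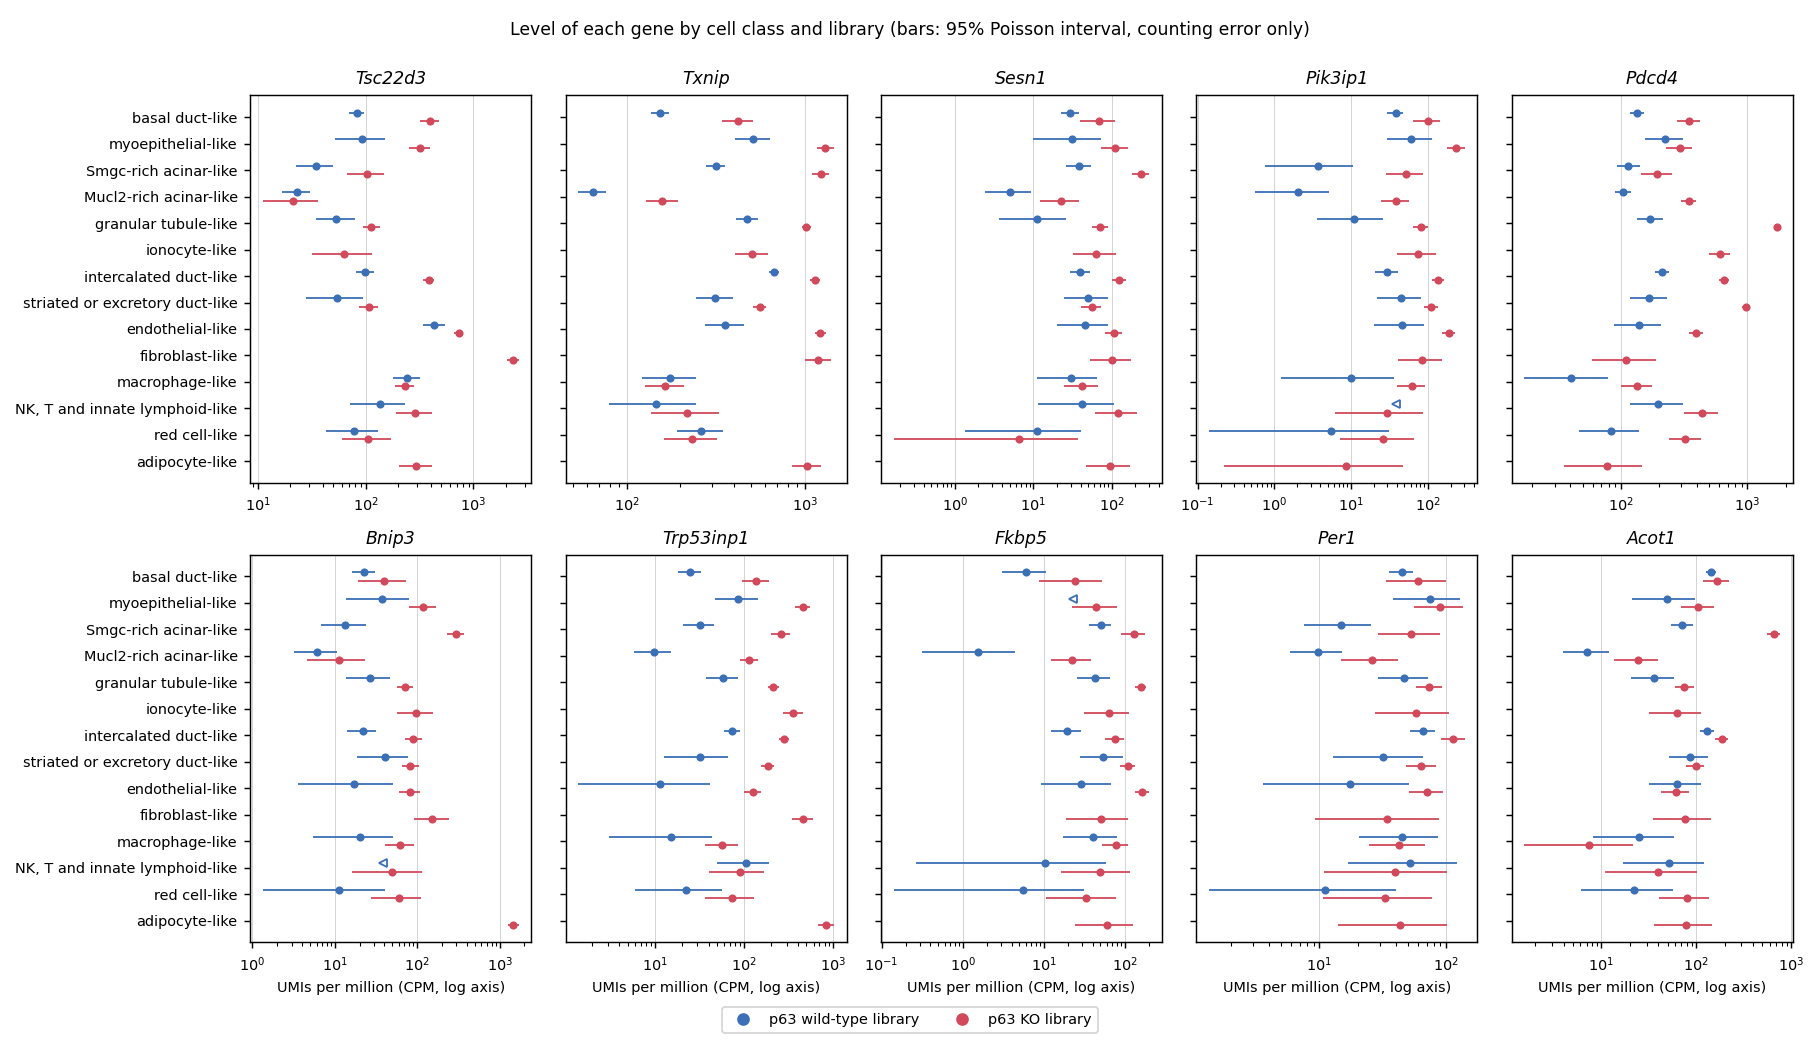
Level of each of the 10 genes in CPM (log axis) by cell class, in the wild-type (blue) and KO (red) libraries, for classes with at least 20 cells in that library; bars are 95% Poisson intervals and open triangles mark the upper limit where 0 UMIs were seen. Acot1 in Smgc-rich acinar-like cells and Pdcd4 in granular tubule-like cells are far apart between the libraries, while Tsc22d3 and Txnip coincide in macrophage-like cells.

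Macrophage-like cells were the compared class in which no gene of the 10 passed the rule. Only 3 genes had 50 UMIs there, Tsc22d3, Txnip and Pdcd4, so a 2-fold difference of the other 7 was not detectable at this depth. With TMM factors Tsc22d3 stood at 1.12 (0.782 to 1.62) and Txnip at 1.09 (0.713 to 1.69) there, on the other side of 1, with intervals that include 1 under both scalings. All 9 macrophage markers were over 2-fold above the other cells in both libraries, but RNA of other cells differed between them: Smgc-rich acinar markers summed to 17500 CPM in wild-type and 2040 CPM in KO macrophage-like cells, and Mucl2-rich acinar markers to 11400 and 3920 CPM. Their part in the macrophage-like values was not tested. Endothelial-like cells need more care. Of the 55 wild-type cells only 26 lay in the endothelial-like cluster, against 296 of 322 KO cells, and their red cell markers summed to 57800 CPM, against 10700 in KO cells; the 10 endothelial markers were over 2-fold up in both. Among cells gated and clustered as endothelial, 1 of the 4 genes still passed the rule, beside 1.35% of all genes: Trp53inp1, with 0 wild-type UMIs. There Txnip had a ratio of 2.04 (1.51 to 2.81), Pik3ip1 3.46 (1.31 to 12.9) and Fkbp5 2.55 (1.06 to 8.04). The endothelial-like calls for these 3 genes thus depended on the gate. In the other 5 classes the same restriction left every call in place, and 1 gene more passed in granular tubule-like cells, where 2.16% of all genes did.

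The classes with too few or too mixed cells for comparison gave the following levels. In striated or excretory duct-gated cells Pdcd4 stood at 168 CPM (wild-type) and 970.5 CPM (KO), Txnip at 313 and 557 and Sesn1 at 49.9 and 55.6. In myoepithelial-like cells (35 and 80 cells) Txnip stood at 511 and 1306 CPM and Trp53inp1 at 86.3 and 454, and Fkbp5 had 0 UMIs (upper limit 22.7 CPM) and 11. In Mucl2-rich acinar-like cells (151 and 33) Trp53inp1 stood at 9.68 and 115 CPM and Pdcd4 at 104 and 344, and Tsc22d3 at 22.9 (16.7 to 30.7) and 21 (11.2 to 35.9). NK, T and innate lymphoid-like cells (34 and 69) had Trp53inp1 at 104 (50 to 192) and 89.2 CPM (40.8 to 169) and Pdcd4 at 198 and 436. Levels of Tsc22d3 in Mucl2-rich acinar-like cells and of Trp53inp1 in lymphoid-like cells overlapped between the libraries.

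In the wild-type library alone, the order of the 11 classes with 20 or more cells differed between the genes. Tsc22d3 was highest in endothelial-like cells at 432 CPM (340 to 542), above macrophage-like cells at 241 (178 to 319), and the intervals of these neighbours did not overlap. Below them the intervals of NK, T and innate lymphoid-like cells (135), intercalated duct-like (99.1), myoepithelial-like (92.4) and basal duct-like cells (82.8) overlapped. Txnip was highest in intercalated duct-like cells at 672 CPM (626 to 720), next to myoepithelial-like cells at 511 (407 to 634) with an overlap, and lowest in Mucl2-rich acinar-like cells at 64.2 (53.5 to 76.4). Acot1 was highest in basal duct-like cells at 145 CPM (128 to 163) and intercalated duct-like cells at 131 (111 to 153), which overlapped. Both lay above Smgc-rich acinar-like cells at 70.9, the class with the highest level in the KO library. Pdcd4 ranged only from 222 CPM (155 to 307) in myoepithelial-like to 40.1 (17.3 to 79.1) in macrophage-like cells, and granular tubule-like cells, highest in the KO library, stood at 171 beside intercalated duct-like cells at 211 with overlapping intervals. The other genes had low wild-type levels, whose highest classes (striated or excretory duct-gated for Sesn1, Bnip3 and Fkbp5, myoepithelial-like for Pik3ip1 and Per1, lymphoid-like for Trp53inp1) overlapped with their neighbours. Mucl2-rich acinar-like cells, in which a few secretory genes take most UMIs, were lowest for 6 of the 10 genes.

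Cells with a high mitochondrial share were more frequent among KO barcodes, so the ratios were also taken within ranges of that share. Of the 10 genes, 8 passed the size rule in cells with 0 to under 5% mitochondrial UMIs (beside 7.27% of all genes), 8 in those with 5 to under 10% (5%) and 6 in those with 10 to under 20% (1.96%). The genes that dropped out in the last range were Tsc22d3, with ratios of 5.24 (4.64 to 5.93), 4.78 (4.04 to 5.67) and 1.64 (1.28 to 2.12) in order of share, and Txnip, with 3.99 (3.71 to 4.29), 2.57 (2.35 to 2.81) and 1.93 (1.73 to 2.16). Pdcd4 went the other way, with 3.52 (3.18 to 3.89), 3.43 (3.03 to 3.88) and 6.37 (5.43 to 7.51). Class and mitochondrial share move together: granular tubule-like cells had medians of 13.6% and 13.1%. Within granular tubule-like cells of 10 to under 20%, 6 genes passed (beside 1.81%), with Pdcd4 at 9.31 (7.20 to 12.2). Within intercalated duct-like cells of 5 to under 10%, 5 genes passed (1.88%), with Tsc22d3 at 4.20 (3.06 to 5.83).

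**Figure D3:**
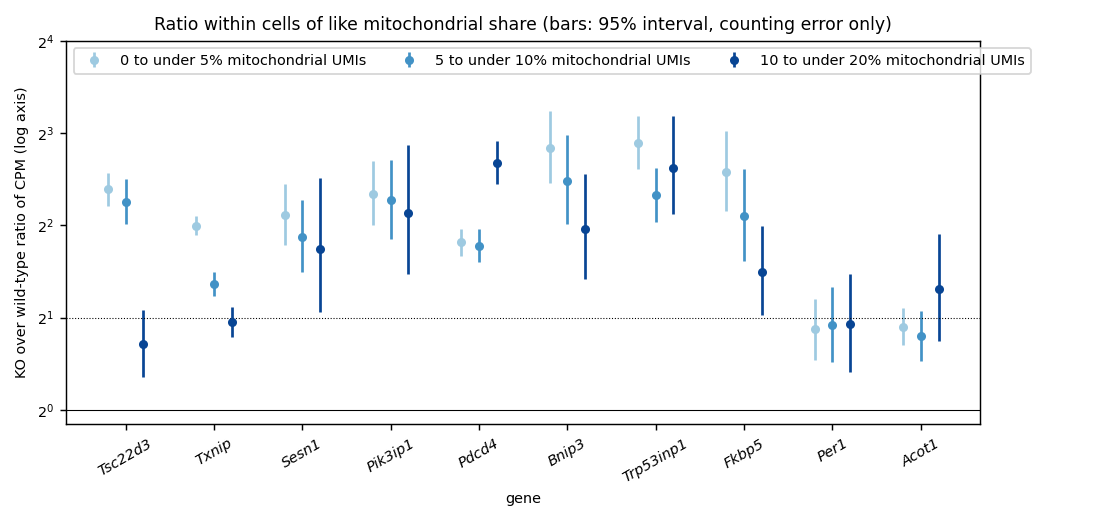
KO over wild-type ratio of CPM (log axis) for each gene over all classes, in cells with 0 to under 5%, 5 to under 10% and 10 to under 20% mitochondrial UMIs; bars are 95% intervals for counting error, the solid line marks 1 and the dotted line 2. Tsc22d3 and Txnip lie lower in the highest range and Pdcd4 higher.

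The genes were next counted cell by cell, after each cell was thinned to 1000 UMIs. Wild-type cells held on average 0.653 of the 10 genes and KO cells 1.73 (2.03 and 3.06 without thinning). Cells without any of the 10 made up 51.7% (49.2 to 54.1%, exact binomial) in the wild-type library and 19.3% (17.7 to 20.9%) with the KO, and 3 or more were seen in 2.16% (1.52 to 2.98%) and 27.4% (25.7 to 29.3%). In Smgc-rich acinar-like cells 3 or more were seen in 1.5% and 42.1% (29.1 to 55.9%), in intercalated duct-like cells in 5.91% and 40.3% (33.2 to 47.7%), in granular tubule-like cells in 1.29% and 33.3%, in endothelial-like cells in 3.64% and 32.0%, and in basal duct-like cells in 1.49% and 11.9%. Macrophage-like cells had 0 of 70 (upper bound 5.13%) and 4.12% (1.99 to 7.44%). Red cell-like barcodes had 0 of 55 (upper bound 6.49%) and 8.89% (2.48 to 21.2%), the latter from 4 of 45 cells. Among the compared classes, the KO shares of Smgc-rich acinar-like, intercalated duct-like, granular tubule-like and endothelial-like cells lie above that last interval. Those of macrophage-like and basal duct-like cells lie within it, as do those of Mucl2-rich acinar-like (3.03%), lymphoid-like (7.25%) and ionocyte-like cells (14.8%). Whether red cell-like barcodes measure free RNA was not tested, so no share is read as background. Within a class and library, the median correlation over pairs of these genes from cell to cell lay between -0.05 and 0.04, and the highest of a single pair between 0.15 and 0.51, the latter for Pik3ip1 and Acot1 in 55 wild-type endothelial-like cells. Counts this sparse make these values a description only.

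**Figure D4:**
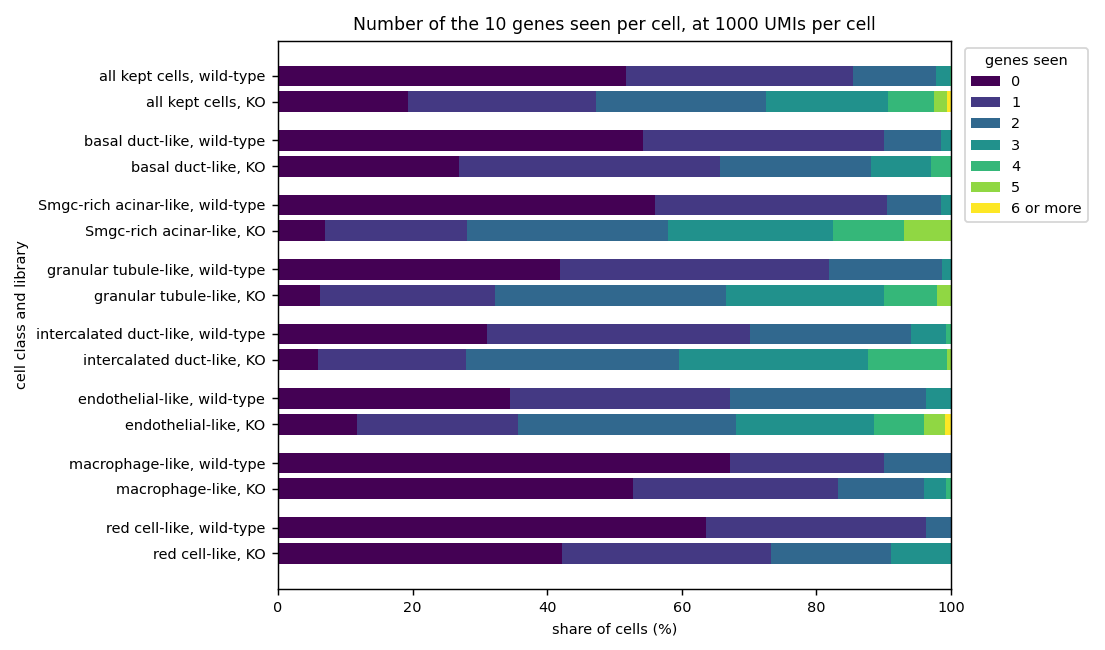
Share of cells (%) with 0 to 6 or more of the 10 genes seen at 1000 UMIs per cell, by class and library. Red cell-like barcodes are shown beside them, and whether they measure free RNA was not tested. The bars shift to more genes in the KO library in the epithelial and endothelial-like classes, and little in macrophage-like cells.

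Over the 14 values of class and library (the 6 classes and the striated or excretory duct gate), the genes with the profile most like the mean of the 10 among 5712 ranked were Klf15, a zinc finger factor induced by glucocorticoids (r = 0.94), Cirbp, a cold-inducible RNA binding protein (r = 0.94), Xpa, a DNA repair factor (r = 0.92), Pim3, a serine/threonine kinase (r = 0.92), and Zc3h6 (r = 0.92). All of these points come from 2 libraries, and a gene that is higher in the KO library throughout will correlate for that reason. Against the mean of the other 9, Trp53inp1 had the highest r, 0.89, and Tsc22d3 the lowest, 0.31, followed by Acot1 at 0.43.

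Other genes of the same pathways, in 11 lists chosen with earlier results of these data known, were counted over all cells, leaving the 10 genes out. There were 194 different list genes, of which 30 were higher past the size rule and 2 lower, but 15 and 4 with TMM factors. Glucocorticoid receptor and target genes made up the largest group, in a list that also held Hsd11b1, which was among those higher. Of 21 with 50 UMIs, 12 were higher and 0 lower, beside 6.72% and 2.49% of all genes, with a list median of 1.08 log2 beside 0.18 over all genes; with TMM factors 8 were higher. Klf15, which links glucocorticoids to amino acid breakdown, had 115 and 707 UMIs and a ratio of 7.10 (5.82 to 8.72), and the zinc-binding metallothioneins Mt1 and Mt2 had ratios of 4.07 (3.98 to 4.16) and 4.70 (4.53 to 4.89). Pdk4, a kinase that shuts off glucose oxidation, stood at 4.05 (3.43 to 4.80). By class, 8 of 16 of these genes were higher in intercalated duct-like cells (beside 1.77% of all genes), 5 of 16 in endothelial-like (2.63%), 5 of 13 in Smgc-rich acinar-like (4.39%), 3 of 14 in granular tubule-like (2%), 3 of 15 in basal duct-like (1.24%) and 1 of 9 in macrophage-like cells (7.52%), which is near the share of all genes. In the latter Mt2 was higher, at 5.39 (3.89 to 7.65), and Anxa1 lower, beside 4.99% of all genes lower there. Sgk1, higher in endothelial-like cells, was lower past the rule in granular tubule-like cells, beside 1.32% of all genes.

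By class, FOXO factors and targets had 2 of 15 genes higher and 2 lower (Cat and Cited2) in intercalated duct-like cells, beside 1.77% and 2.1% of all genes. In basal duct-like cells 0 of 12 were higher and 1 (Cat) lower, beside 1.24% and 1.64%. Higher were 2 of 7 in Smgc-rich acinar-like (4.39%), 2 of 13 in granular tubule-like (2%) and 2 of 4 in macrophage-like cells (7.52%). In endothelial-like cells 0 of 9 were higher (2.63%). None was lower in these classes, beside 2.12%, 1.32%, 4.99% and 1.43% of all genes. Over all cells 5 of 19, with Klf15 counted here again, were higher and 0 lower, beside 6.72% and 2.49% of all genes (3 higher with TMM factors). Among them the autophagosome gene Gabarapl1 had 1105 and 3624 UMIs and a ratio of 3.79 (3.54 to 4.05), and the pro-death gene Bcl2l11 5.12 (3.98 to 6.65), while Sod2, a mitochondrial superoxide dismutase, stood at 1.39 (1.29 to 1.49). The 2 higher in macrophage-like cells were Sod2, at 4.4 (3.29 to 5.96), and Bcl2l11, at 4.52 (2.18 to 10.9). Of 18 autophagy genes 3 were higher, beside 6.72% of all genes, and 2 of these with TMM factors. The 3 were Gabarapl1, counted here again, Map1lc3b at 2.35 (2.25 to 2.46) and the cargo receptor Sqstm1 at 3.22 (2.99 to 3.48). In PI3K and mTORC1 signalling 2 of 21 were higher, which is near the 6.72% of all genes. They were Deptor, an mTOR inhibitor, at 3.15 (2.69 to 3.71) and Mtor at 2.75 (2.03 to 3.75), and with TMM factors Deptor alone. The helicase gene Eif4a1, whose product Pdcd4 inhibits, stood at 1.04 (0.985 to 1.09).

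The remaining lists had few genes past the rule, and 1 of 18 or 1 of 16 is near the 6.72% of all genes. Of 18 p53 targets only Cdkn1a, which encodes the cell cycle inhibitor p21, was higher, at 2.53 (2.37 to 2.72), and with TMM factors none of the 18 was. Of 16 amino acid response genes the cystine transporter Slc7a11 was higher, at 5.81 (3.93 to 8.84), and the serine synthesis genes Phgdh and Psat1 lower, at 0.186 (0.151 to 0.228) and 0.206 (0.117 to 0.342). Of the 31 wild-type and 156 KO Slc7a11 UMIs, 2 and 98 lay in macrophage-like cells, a ratio of 24.3 (6.55 to 203). Smgc-rich acinar-like, granular tubule-like, intercalated duct-like and endothelial-like cells held 0 or 1 in each library. The mix of classes thus enters its ratio over all cells. Of 16 hypoxia genes only Ddit4, which glucocorticoids also induce, was higher, at 3.25 (2.90 to 3.64), and the glycolytic Aldoa and Ldha stood at 1.11 and 0.808. Of 13 genes of glucose sensing and thioredoxin 0 passed, and the peroxiredoxins Prdx1 and Prdx2 stood at 0.688 and 0.653. Of 16 clock genes Per3, Tef and Bhlhe40 were higher, at 3.25, 2.51 and 2.32, and with TMM factors Per3 alone.

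Stress of dissociation was gauged by 19 immediate early and heat shock genes, of which 4 were higher, beside 6.72% of all genes. They were Fosb at 2.23, Hspa1a at 2.07, Hspa1b at 2.17 and Socs3 at 4.46, and Fos stood at 1.70. With TMM factors only Socs3 passed. By class the count was 6 of 19 in endothelial-like (beside 2.63% of all genes), 2 in basal duct-like (1.24%) and granular tubule-like (2%) and 1 in macrophage-like cells (7.52%). It was 0 in Smgc-rich acinar-like (4.39%) and intercalated duct-like cells (1.77%). The list medians in this order of classes were 1.06, 0.649, 0.496, 0.602, -0.62 and 0.13 log2, and 0.552 over all cells. The part of dissociation in the levels of the 10 genes was not tested in any class.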

How the data were processed

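Gene expression was measured in a wild-type and a KO library. The values are raw UMI counts, as the authors deposited them for each barcode. Per the submitters' processing notes the build was mm10, and the tools were Seurat 3.1.2, Cell Ranger 2.1.0 and bcl2fastq 2.19.1; their selection of barcodes is not stated there. GENCODE M21 (GRCm38) gave symbols for 27722 of 27998 genes. Kept cells held 7931377 and 6871803 UMIs.

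A marker counted in a cell at 2 times the mean of the 2 libraries' means, and a class needed at least 2 markers and more than any other class. Cells with Krt14 and Krt17 were scored as basal duct by markers seen. Their intercalated and striated or excretory duct scores were set aside, so they could not be gated to those classes. These thresholds, and the use of clusters to choose the compared classes, were set after the data were seen; 172 wild-type and 359 KO cells were gated at the minimum of 2 markers. Ungated were 156 and 422 cells. Clusters came from scanpy 1.11.5 and leidenalg 0.10.2 (resolution 1) without the 10 genes and the list genes. Scrublet marked 1 wild-type (0.0601%) and 4 KO cells (0.165%), too few to have worked on the KO library, so doublets were in effect not removed. UMIs were summed per class and library; ratios of 2 Poisson counts have exact conditional intervals, and log2 ratios add 10 CPM to both sides. TMM factors came from edgeR 4.0.16. With 1 library per genotype no test was made. On simulated counts with 4-fold changes, over all kept cells, 100 of 100 raised and 85 of 100 lowered genes and 0 of 9722 unchanged ones were called. In intercalated duct-like cells 73 of 100 lowered genes were called, and in macrophage-like cells the 95% intervals of unchanged genes covered 1 in only 89.2%. These sums were drawn as Poisson counts from wild-type means, the model that the intervals assume. They hold no variation between libraries, cells or states, so they check the calculation and not the error of a real comparison.

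The 10 genes, the lists and the rules were chosen with earlier results of these data known. Named genes were the 10 genes, from each list the 2 genes with the most UMIs and up to 4 with the largest log2 ratio past the size rule over all cells, and the 5 genes most alike in profile; others were named to complete counts of list genes. The result of 1 of the 11 lists is not reported here.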

Additional observations from a re-analysis of the deposited data

Results flagged for a closer look

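Barcodes left out by the filter (307 wild-type and 2303 KO, with median mitochondrial shares of 26.4% and 34.0%) are not used in the comparisons above. In them 8 of the 10 genes had intervals above 1. The share of all genes with such intervals was not taken there, so nothing is read from that count. The KO over wild-type ratios were 3.77 for Pik3ip1 (2.17 to 7.17), 3.33 for Pdcd4 (2.88 to 3.87) and 3.20 for Trp53inp1 (2.30 to 4.58), which passed the size rule, as did 0.944% of all genes with enough UMIs. The ratios of Sesn1 (3.35), Acot1 (3.33), Bnip3 (1.96), Fkbp5 (1.85) and Txnip (1.59) did not pass it. Tsc22d3 stood at 1.14 (0.811 to 1.66) and Per1 at 1.04 (0.732 to 1.52), with intervals that include 1.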

How the results depend on the processing

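Over all kept cells 8 of the 10 genes were higher past the size rule in every alternative run, beside 4.04% to 7.28% of all genes, and no call turned direction. By class, the 24 calls of 60 became 10 of 30 where the filter asked for 500 genes and a mitochondrial share below 10%, 15 of 40 with 3 markers per gate (in both, fewer classes had enough cells), and 8 of 60 with every cell thinned to 1000 UMIs, where fewer UMIs remained. Of all genes, 1.17% to 8.67%, 1.75% to 7.8% and 1.62% to 6.54% per class passed as higher under these settings in turn. Of 32 calls by class and over all cells, thinning lost 16, among them Trp53inp1 in basal duct-like, Smgc-rich acinar-like, intercalated duct-like and endothelial-like cells. Other alternatives gave 22 to 25, mostly of 60, beside 0.469% to 11.8% of all genes per class. With no filter on barcodes it was 22 of 70, as red cell-like barcodes entered. With clusters in place of gates the pairs were 50, without endothelial-like cells. Classes of at least 20 cells with the striated or excretory duct gate gave 31 of 110 (0.844% to 7.52%), an alternative chosen after seeing the data. So was the restriction to cells gated and clustered alike, with 22 of 60 (1.18% to 7.5%). Since the 10 genes were chosen on this contrast, nothing is read from these counts against their backgrounds. List genes higher over all cells numbered 30 and became 17 with no filter and 15 with TMM factors, with a denominator free of mitochondrial, ribosomal protein and marker UMIs, and with thinning; those lower numbered 2 and became 4, 4, 4 and 1. With that denominator 416 of all genes were higher and 470 lower. The causes were not tested. After thinning, the highest wild-type class was the same for only 4 of the 10 genes. Pairs with 0 wild-type UMIs under an alternative have no ratio and no value there. Calls lost in single classes with another denominator were Txnip in basal duct-like cells (2.46) and Pik3ip1 in endothelial-like cells (3.62). No paired analysis was possible because each group is 1 library, and none could be left out.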
